A study of Mus musculus with 6 samples.

Results

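The genes described here are 10 transcription factors that were followed between tumour-infiltrating NK cells and type 1 innate lymphoid cells (ILC1s). By role, 6 are factors of NK cell maturation (Zeb2, Irf8, Ikzf3, Nfil3, Runx3 and Ets1) and 4 are factors better known from helper-type lymphocytes (Gata3, Maf, Ikzf2 and Runx2). They were taken by symbol from the deposited count table, and all 10 were found among its 55291 symbols. Both groups came from tumours that grew for 14 days after MC38 cells, a colon carcinoma line from C57BL/6 mice, were placed under the skin of wild-type mice of that strain. No other allele or agent separated the groups: 3 libraries were labelled NK and 3 ILC1, all from wild-type hosts. The sort markers, the age of the animals, and whether each library came from a separate mouse or pool were not given in the sources used here, and the p-values here speak of the spread among these libraries alone, which may be technical. The question was how ILC1s and NK cells of the same tumour model differ in their transcripts.

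NK cells mature in steps. Nfil3 and Ets1 act early, in the commitment and survival of NK precursors. Runx3 works with T-bet to support cytotoxic and receptor genes, while Irf8, Ikzf3 (Aiolos) and Zeb2 are needed for the later stages. Gata3 and c-Maf are master regulators in type 2 and other helper T cells, and Gata3 is also needed by ILC2s and by several tissue ILC1s. Ikzf2 (Helios) restrains NK cell activation and marks regulatory T cells, and Runx2, best known from bone, is a RUNX family member that lymphocytes also use.

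The libraries held 16931099 to 20224847 counts, and the 10 factors were covered by 299 to 27272 counts each. The 10 group 1 ILC markers tested as a check of the labels (among them Ncr1 and Tbx21, which encodes T-bet) were above 3 counts in every library, with a sum of 7545 to 12047 CPM (library-size scaled counts) in NK and 6121 to 6889 in ILC1. Il2rb alone held 3035 to 4820 CPM in NK and 2672 to 3274 in ILC1. The highest ILC1 sum was that of replicate 3. Fcer1g and Tyrobp held 808 and 1075 CPM of it, against 403 and 417 in ILC1 replicate 1 and 384 and 560 in replicate 2. The libraries were not uniform within their groups. ILC1 replicate 3 held 17281 CPM of 16 macrophage and monocyte markers, against 788 to 1071 in the other 5 libraries. In those 5, Itgax alone held 391 to 841 CPM, so the sum hides how other markers differed. For example, Lyz2 and Cd14 were higher in NK replicate 3 and ILC1 replicates 1 and 2 (92.6 to 117 and 51.55 to 68.6 CPM). NK replicates 1 and 2 held 29.8 and 32.8 CPM of Lyz2, with 9.14 and 8.68 CPM of Cd14. Cd68 went the other way: NK replicates 1 and 2 held 47.0 and 23.8 CPM, and the rest of the 5 held 14.1 to 20.5. Fibroblast and matrix genes summed to 19.0 and 30.0 CPM in NK replicates 1 and 2, but to 1828 in NK replicate 3. They summed to 2244, 2995 and 5975 CPM in ILC1 replicates 1, 2 and 3. In ILC1 replicate 3 nearly all of that sum was Fn1, at 5896 CPM. Bgn was at 18.5 CPM there, against 577 and 752 in ILC1 replicates 1 and 2. Col3a1 was at 20.8 CPM, against 472 and 762. NK replicate 3 correlated with ILC1 replicates 1 and 2 at r = 0.977 and 0.971 over log2 CPM of genes, and with NK replicates 1 and 2 at 0.880 each. The part of these markers in the results below was not tested, and in bulk libraries fewer cells of a type and less RNA per cell cannot be told apart.

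None of the 10 factors passed the test between ILC1 and NK. With edgeR's quasi-likelihood test and Benjamini-Hochberg adjustment over 14475 genes, their adjusted p ran from 0.278 to 0.970, and 12 genes in all (0.0829%) were called at 0.05, 11 of them higher (0.076%) and 1 lower (0.00691%) in ILC1. Ikzf3 and Ikzf2 had an unadjusted p under 0.05, 2 of 10 members, where 15.8% of the genes tested did. DESeq2, which called 6.98% of genes, and limma-voom, which called 0.124%, called none of the 10 either. The libraries of the groups did not overlap for 4 members (40.0%), with the ILC1 libraries below for Ikzf3, Ets1 and Gata3 and above for Ikzf2, and for 25.8% of all genes tested. The log2 fold change, ILC1 minus NK, was above 0 for 5 factors and below 0 for 5, with a median of -0.071 beside 0.081 over all genes tested. The median was -0.27 for the NK maturation factors and 0.27 for the helper-lineage factors, but the value of Gata3 was below 0 and that of Zeb2 above it. The helper-lineage median was 0.050 without ILC1 replicate 3 and -0.049 between NK replicate 3 and ILC1 replicates 1 and 2, where the NK maturation median was -0.35 and -0.25.

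**Figure D1:**
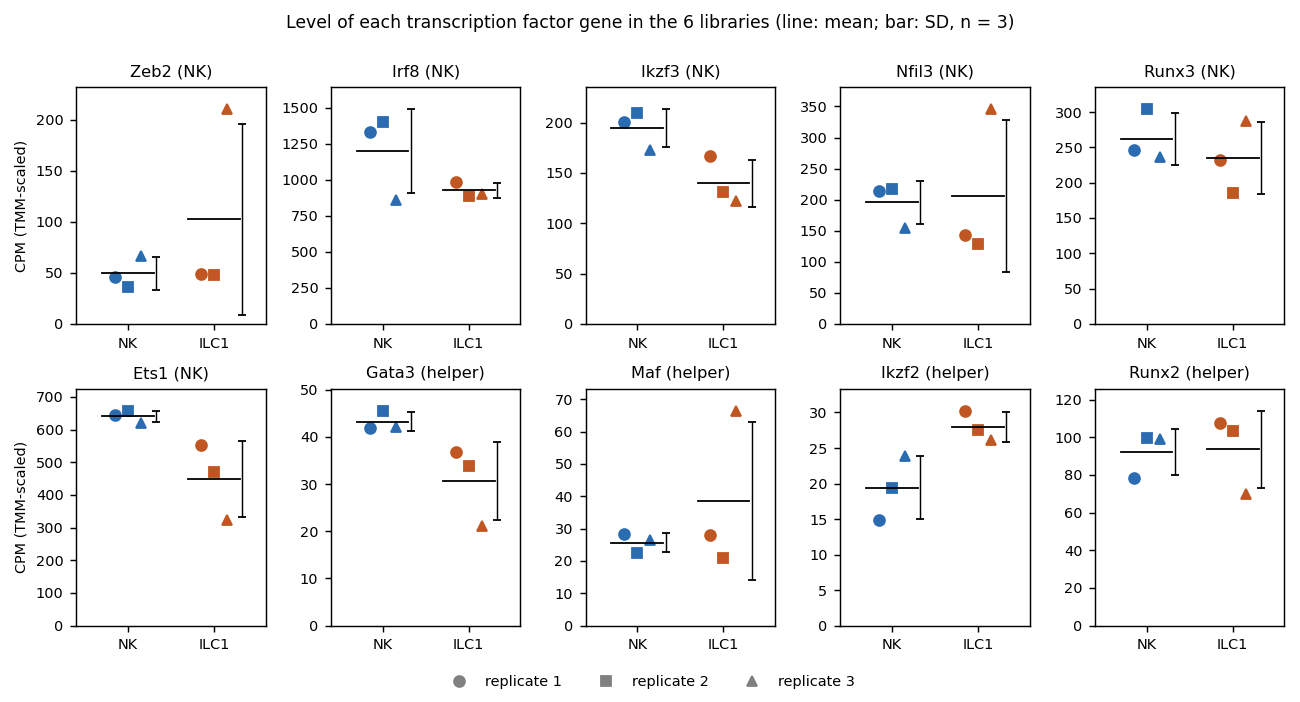
CPM of each factor in the 3 NK and 3 ILC1 libraries, 1 panel per gene; points are libraries with a different symbol for each replicate number, lines are group means and bars are SD over 3 libraries. The groups are apart for Ikzf3, Ets1, Gata3 and Ikzf2, and ILC1 replicate 3 stands above all other libraries for Zeb2, Nfil3 and Maf.

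Ikzf3 encodes Aiolos, a zinc-finger protein of the Ikaros family that NK cells need for their last maturation steps; it lies at chr11:98464902-98546031 on the minus strand (GRCm38). Its level was 201, 209.7 and 173 CPM in NK replicates 1, 2 and 3 and 166, 131 and 122 CPM in ILC1 replicates 1, 2 and 3. All NK libraries were above all ILC1 libraries, with a small gap between NK replicate 3 and ILC1 replicate 1. The means were 194 ± 19.2 (SD, n = 3) and 139.6 ± 23.7 CPM, a log2 fold change of -0.48 ± 0.17 (SE) with an adjusted p of 0.278 in edgeR's quasi-likelihood test, the lowest among the 10. The value ran from -0.61 to -0.22 under the 16 alternatives. These reuse the same libraries, so with the groups apart its direction was largely set beforehand.

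Ikzf2, which encodes Helios of the same family, had the opposite arrangement (chr1:69531214-69687245, minus strand). It was at 14.9, 19.4 and 23.8 CPM in NK and 30.3, 27.5 and 26.1 CPM in ILC1. Every ILC1 library was above every NK library, and NK replicate 3 was the nearest to ILC1. The means were 19.4 ± 4.45 and 28.0 ± 2.13 CPM (SD, n = 3 each), and the log2 fold change was 0.53 ± 0.21 (SE; edgeR adjusted p = 0.312). With limma-voom and estimated library weights, which gave 15.3% of genes a call, Ikzf2 was called at 0.69 (adjusted p = 0.0418); this was the only alternative that called it.

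Of the other Ikaros family members, Ikzf1 (Ikaros) was at 451, 432 and 319 CPM in NK and 251.2, 213.7 and 226.1 CPM in ILC1, with no overlap and a log2 fold change of -0.80 ± 0.18 (edgeR adjusted p = 0.154; called by DESeq2 with an adjusted p of 0.0018). Ikzf4 (Eos), a Helios relative also active in regulatory T cells, was rare, at 0.899, 0.616 and 0.817 CPM in NK and 2.06, 1.66 and 2.61 CPM in ILC1, again with no overlap (log2 fold change 1.43 ± 0.49, edgeR adjusted p = 0.276). Regulatory T cell markers summed to 63.3 to 85.7 CPM in NK and 252 to 296 CPM in ILC1, with Ctla4 and Il2ra as the leading genes, while Foxp3, the defining factor of these cells, stood at 0.205 to 2.15 CPM over all 6 libraries.

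Because Helios and Aiolos were assigned to opposite roles, their balance was measured inside each library as the log2 ratio of reads per kilobase, which needs no scaling between libraries. The Ikzf2 to Ikzf3 ratio was -4.15, -3.84 and -3.27 in NK and -2.87, -2.65 and -2.63 in ILC1. Aiolos transcripts therefore outnumbered Helios transcripts in every library, and the margin was narrower in each ILC1 library than in each NK library. The difference of means was 1.04, with an exact two-sided permutation p of 0.1, which is the smallest that 3 against 3 libraries can give. As Ikzf2 and Ikzf3 were each apart between the groups, in opposite directions, their ratio had to be apart too. This p was therefore fixed by those values and is no further test. Comparing NK replicate 3 with ILC1 replicates 1 and 2 alone left a difference of 0.51.

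**Figure D2:**
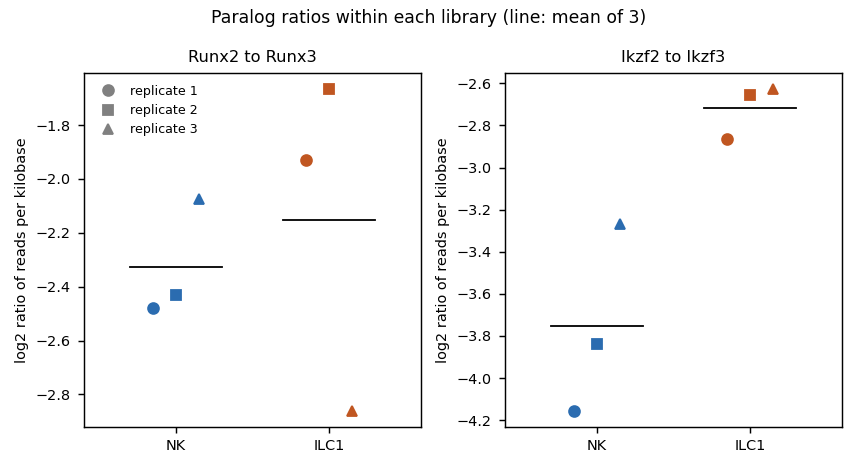
Log2 ratio of reads per kilobase of Runx2 to Runx3 (left) and Ikzf2 to Ikzf3 (right) in each library; symbols are replicates and lines are means of 3. The Ikzf2 to Ikzf3 ratio lies between -4.15 and -3.27 in NK and between -2.87 and -2.63 in ILC1, whereas the Runx2 to Runx3 ratios of the groups overlap.

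Ets1 (chr9:32636221-32757820, plus strand) encodes the founding ETS-domain factor, required for normal NK cell numbers. The NK libraries were close together at 643, 657 and 621 CPM, and the ILC1 libraries held 551, 471 and 325 CPM. All ILC1 libraries were below all NK libraries, with ILC1 replicate 3 lowest. The mean was 640.2 ± 17.98 CPM in NK and 449 ± 115 in ILC1 (SD, n = 3 each), and the log2 fold change was -0.51 ± 0.21 (edgeR adjusted p = 0.321). Without ILC1 replicate 3 it was -0.34, and over all 16 alternatives it stayed between -0.68 and -0.28.

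The other ETS factors did not share a direction. Elf4, which restrains proliferation of lymphocytes and supports NK cell development, was at 235, 294 and 259 CPM in NK and 167, 131.5 and 152.5 CPM in ILC1 (log2 fold change -0.81 ± 0.15, edgeR adjusted p = 0.127). Elf1 was at 273, 232 and 234 CPM in NK and 186, 149 and 142 CPM in ILC1 (-0.63 ± 0.16, edgeR adjusted p = 0.182). Neither overlapped between groups, and DESeq2 called both, with adjusted p of 0.00019 and 0.0067. Ets2 was apart the other way, at 30.4, 33.5 and 50.3 CPM in NK and 70.0, 58.7 and 578 CPM in ILC1 (2.63 ± 0.99, edgeR adjusted p = 0.301), and without ILC1 replicate 3 its value was 0.74. Etv6 (0.69), Spi1 (3.22), Fli1 (-0.14) and Gabpa (-0.045) overlapped between groups; Spi1, which encodes the myeloid factor PU.1, was at 3.41 to 20.2 CPM in the other 5 libraries and 281 CPM in ILC1 replicate 3, and its value without that library was -0.75.

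Irf8 (chr8:120736358-120756694, plus strand), an interferon regulatory factor that NK cells need for antiviral expansion and that also directs dendritic cell development, was the most abundant of the 10. It was at 1333, 1401 and 862 CPM in NK and 986, 889 and 904 CPM in ILC1. NK replicates 1 and 2 stood above the other 4 libraries, and NK replicate 3 was the lowest of all, so the groups overlapped. The means were 1199 ± 293 and 926 ± 52.5 CPM (SD, n = 3 each), with a log2 fold change of -0.37 ± 0.21 and an edgeR adjusted p of 0.443. Without NK replicate 2 the value was -0.24, and between NK replicate 3 and ILC1 replicates 1 and 2 it was 0.080. Dendritic cell markers summed to 188 to 298 CPM in NK, to 537 and 539.9 CPM in ILC1 replicates 1 and 2 and to 9039 CPM in ILC1 replicate 3. Most of that last sum was Cd74 (4483 CPM) and H2-Aa (2223 CPM), while Flt3 and Xcr1 were at 3.65 and 5.85 CPM. The cells that held these transcripts were not tested. Irf8 in ILC1 replicate 3 was 0.965 times the mean of the other ILC1 libraries. Irf4, the closest relative of Irf8, was at 2.75, 2.88 and 3.12 CPM in NK and 4.62, 4.14 and 15.3 CPM in ILC1. Every ILC1 library was above every NK library, and ILC1 replicate 3 was far above the rest. Its log2 fold change was 1.46 ± 0.59 (edgeR adjusted p = 0.315), and 0.57 without ILC1 replicate 3.

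Runx3 (chr4:135120652-135177990, plus strand) binds DNA with its partner Cbfb and supports NK cell receptor and cytotoxic genes. Its level was 247, 305 and 236 CPM in NK and 232, 186 and 287 CPM in ILC1. The groups overlapped, with means of 263 ± 36.8 and 235 ± 50.6 CPM (SD, n = 3 each; log2 fold change -0.16 ± 0.20, edgeR adjusted p = 0.728). Leaving out single libraries moved this value between -0.34 (without ILC1 replicate 3) and -0.0097 (without ILC1 replicate 2), with -0.035 without NK replicate 2. Cbfb varied little, at 178 to 183 CPM in NK and 163 to 184 CPM in ILC1 (-0.053 ± 0.11, edgeR adjusted p = 0.826). T-bet, with which Runx3 acts, was encoded by Tbx21 at 233, 298 and 195 CPM in NK and 246, 208 and 207 CPM in ILC1 (-0.13 ± 0.19, edgeR adjusted p = 0.752).

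Runx2 (chr17:44495987-44814797, minus strand), assigned to the helper-lineage role, was at 78.2, 99.7 and 99.0 CPM in NK and 107, 103 and 69.8 CPM in ILC1. ILC1 held both the highest and the lowest library. The means of 92.3 ± 12.2 and 93.5 ± 20.7 CPM (SD, n = 3 each) gave a log2 fold change of 0.019 ± 0.21 (edgeR adjusted p = 0.970), and the sign turned under 4 of 16 alternatives. Runx1, the remaining family member, overlapped between groups as well, at 84.7 to 95.1 CPM in NK and 73.3 to 114 CPM in ILC1. The Runx2 to Runx3 ratio was -2.48, -2.43 and -2.07 in NK and -1.93, -1.67 and -2.86 in ILC1 (difference 0.18, exact two-sided permutation p = 0.7). ILC1 replicates 1 and 2 had the highest ratios and ILC1 replicate 3 the lowest.

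RUNX proteins can bind their own promoters, so the start regions of this pair are shown, with matches to the RUNX letters TGTGGT (here on the opposite strand, as ACCACA) and to CACCTG, the E-box letters of ZEB proteins (here as CAGGTG), in capitals. Each is the 250 bases before a RefSeq start on GRCm38.p6, written 5′ to 3′ on the gene's strand; the Runx3 stretch is the first of its 2 listed promoters (chr4:135120395-135120644, plus strand), and Runx2 has 1 (chr17:44814628-44814877, minus strand).
Runx3: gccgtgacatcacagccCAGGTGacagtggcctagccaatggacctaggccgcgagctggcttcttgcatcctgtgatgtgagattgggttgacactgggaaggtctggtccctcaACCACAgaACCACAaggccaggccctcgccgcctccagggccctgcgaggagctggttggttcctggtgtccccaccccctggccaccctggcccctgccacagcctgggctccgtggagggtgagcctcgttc
Runx2: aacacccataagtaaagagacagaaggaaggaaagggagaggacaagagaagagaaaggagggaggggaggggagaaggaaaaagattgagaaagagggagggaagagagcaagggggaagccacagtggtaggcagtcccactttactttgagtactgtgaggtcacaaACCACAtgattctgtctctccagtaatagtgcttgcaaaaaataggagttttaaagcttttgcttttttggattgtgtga
The Runx3 matches lie 134 and 126 bases before the start for RUNX and 233 bases before it for the E-box, and the Runx2 stretch has a RUNX match 80 bases before the start. A further pair of RUNX matches follows at 24 and 32 bases after the Runx2 start. Of 32851 promoter windows of 300 bases, 16.8% held TGTGGT and 20.2% held CACCTG on either strand. The second Runx3 promoter held neither, and it is rich in CpG, with 45 CpG pairs in 300 bases, while the first had 8, Runx2 had 2 and the median promoter had 7. The other members with listed promoters were Zeb2, Irf8, Nfil3 and Gata3. In these the only match of any motif searched was an E-box 205 bases before the second Irf8 start. A further 6 motifs were searched on both strands and found in none of the promoters listed for these 6 genes. The ETS letters GGAAGT were held by 23.8% of all windows. The GATA letters AGATAA were held by 11.2% of windows. The NFIL3 letters TTANGTAA were held by 2.32% and the core letters for MAF proteins, TGCTGAC, by 4.67%. An ETS-IRF composite element (2.72%) and an interferon-stimulated response element (3.44%) completed the search. Ikzf3, Ets1, Maf and Ikzf2 are named only. A match is a run of letters, not a measured binding site.

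Zeb2, Nfil3 and Maf shared a pattern in which ILC1 replicate 3, the library with by far the highest sum of macrophage markers, was far above all others. Zeb2 (chr2:44983632-45117395, minus strand) encodes a zinc-finger repressor that acts with T-bet in terminal NK cell maturation and is also highly active in macrophages. It was at 45.8, 35.7 and 66.9 CPM in NK and 48.5, 48.0 and 211 CPM in ILC1. Apart from ILC1 replicate 3, the ILC1 values lay within the NK range. The means were 49.5 ± 15.9 and 102 ± 93.8 CPM (SD, n = 3 each), and the log2 fold change of 1.05 ± 0.67 (edgeR adjusted p = 0.491) became -0.06 without that library. Between NK replicate 3 and ILC1 replicates 1 and 2 Zeb2 was lower in ILC1, at -0.51 with an adjusted p of 0.0264 in edgeR's quasi-likelihood test. That comparison called 12.1% of 15589 genes, and its spread came from 1 pair of ILC1 libraries, the lone NK library being assumed to vary like them. Zeb1, the paralog, was at 30.9, 41.9 and 50.6 CPM in NK and 53.1, 51.0 and 22.4 CPM in ILC1; it was lowest where Zeb2 was highest.

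Maf (chr8:115682942-115707794, minus strand) encodes c-Maf, a bZIP factor of helper T cells and also of macrophages. It was at 28.3, 22.4 and 26.4 CPM in NK and 28.0, 21.0 and 66.5 CPM in ILC1. ILC1 replicates 1 and 2 lay near the NK libraries, and replicate 3 was 2.71 times their mean. The group means were 25.7 ± 2.97 and 38.5 ± 24.5 CPM (SD, n = 3 each), the log2 fold change was 0.58 ± 0.44 (edgeR adjusted p = 0.562), and leaving that library out gave -0.079.

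Nfil3 (chr13:52967209-52981073, minus strand) encodes a basic leucine-zipper repressor needed for NK cell commitment. It was at 215, 217 and 155 CPM in NK and 143, 128 and 346 CPM in ILC1. NK replicate 3 was near ILC1 replicates 1 and 2, NK replicates 1 and 2 were above these, and ILC1 replicate 3 was highest. The means nearly coincided, at 196 ± 35.2 and 206 ± 122 CPM (SD, n = 3 each; log2 fold change 0.072 ± 0.42, edgeR adjusted p = 0.942), and leaving out ILC1 replicate 3 gave -0.54.

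**Figure D3:**
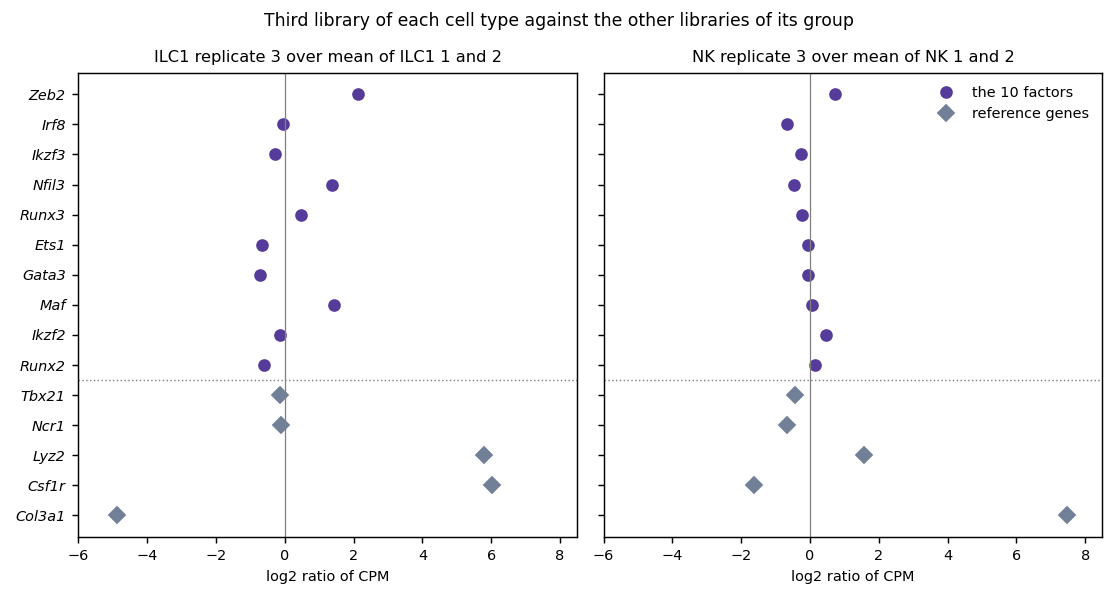
Log2 ratio of CPM in the third library of each cell type to the mean of the other libraries of its group, ILC1 on the left and NK on the right; circles are the 10 factors and diamonds are reference genes. In ILC1 replicate 3, Zeb2, Maf and Nfil3 lie to the right with the macrophage genes Lyz2 and Csf1r, and in NK replicate 3 Irf8 and Nfil3 lie to the left while the matrix gene Col3a1 is far to the right.

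In numbers, ILC1 replicate 3 exceeded the mean of ILC1 replicates 1 and 2 by 4.37 times for Zeb2, 2.71 for Maf and 2.56 for Nfil3, where 7.96% of genes tested were at least 2-fold above. The macrophage genes Lyz2 and Csf1r were 55.4 and 65.0 times as high there. Runx3 was at 1.37 times, Irf8, Ikzf2 and Ikzf3 at 0.965, 0.902 and 0.819 times, and Runx2, Ets1 and Gata3 at 0.662, 0.635 and 0.600 times. Tbx21 and Ncr1, markers of the sorted lineage, were at 0.913 and 0.931 times. Fcer1g and Tyrobp of the same marker list were higher there than in both other ILC1 libraries, at 808 and 1075 CPM. No other marker of that list was highest in ILC1 replicate 3 among the ILC1 libraries. In NK replicate 3, Zeb2 and Ikzf2 were 1.64 and 1.39 times the mean of the other NK libraries, Nfil3 and Irf8 0.718 and 0.631 times, and the other 6 factors between 0.843 and 1.11 times. Ncr1 was at 0.627 times and Tbx21 at 0.734 times in that library.

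Gata3 (chr2:9857078-9890034, minus strand) encodes the zinc-finger factor that directs type 2 helper and ILC2 programmes. It was at 42.0, 45.6 and 42.1 CPM in NK and 36.8, 33.9 and 21.2 CPM in ILC1. The NK libraries were tight, all ILC1 libraries lay below them, and ILC1 replicate 3 was lowest. The means were 43.2 ± 2.06 and 30.6 ± 8.29 CPM (SD, n = 3 each), and the log2 fold change was -0.50 ± 0.23 (edgeR adjusted p = 0.352); without ILC1 replicate 3 it was -0.30. The value ran from -0.64 to -0.25 under the 16 alternatives, which reuse the same non-overlapping libraries and so are no separate support for its direction. Zfpm1 (FOG-1), a GATA cofactor, was at 153, 208 and 96.8 CPM in NK and 72.8, 60.2 and 51.5 CPM in ILC1, also without overlap (-1.31 ± 0.30, edgeR adjusted p = 0.161). The ILC2 cytokine transcripts Il5 and Il13 did not exceed 0.111 and 1.70 CPM in any library. Alpha beta T cell markers, of cells that also express Gata3, Ets1 and Ikzf3, summed to 532 to 610 CPM in NK and 419 to 545 CPM in ILC1. Trbc1 and Trbc2 led that sum, with Trbc1 at 355 to 422 CPM in NK and 192 to 330 CPM in ILC1. Of the 11 markers, 9 had a log2 fold change above 0 and 2 below it. Their median was 0.82, and 0.26 without ILC1 replicate 3.

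Levels were compared between genes as CPM per kilobase of exon. In NK the order of means was Irf8 at 169.9, Nfil3 at 96.6, Ets1 at 75.5, Runx3 at 52.5, Ikzf3 at 22.2, Gata3 at 10.9, Runx2 at 10.4, Maf at 3.12, Zeb2 at 2.48 and Ikzf2 at 1.67. Neighbours overlapped over libraries for Nfil3 and Ets1, Gata3 and Runx2, Maf and Zeb2, and Zeb2 and Ikzf2. In ILC1 the order was Irf8 at 131, Nfil3 at 101, Ets1 at 53.0, Runx3 at 47.0, Ikzf3 at 15.9, Runx2 at 10.6, Gata3 at 7.70, Zeb2 at 5.13, Maf at 4.67 and Ikzf2 at 2.41. There, among neighbours, Runx3 with Ikzf3 and Ikzf3 with Runx2 did not overlap, and all other neighbours did. The factors of NK maturation other than Zeb2 thus took the first 5 places in each cell type.

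The genes whose log2 CPM followed each factor most closely over the 6 libraries are given as a description, since the points share their libraries and 7130 genes were searched. Ets1 went with Lef1 and Txk (Pearson r = 0.995 each) and Gata3 with Chd3 (0.993), while Gramd4 was among the 3 closest of both (0.994 and 0.992). Ikzf2 went with Spred1 (0.998), Ikzf3 with Cnot3 (0.997), Irf8 with Eya2 (0.997) and Runx2 with Pdcd11 (0.994). Zeb2 went with Zfp36 (0.989), Maf with Picalm (0.988), Nfil3 with Fam234a (0.997) and Runx3 with Ddx24 (0.983). For Zeb2, Maf and Nfil3 the closest gene was, like the factor, highest in ILC1 replicate 3.

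The genes around these factors were followed in 5 lists. No list gene was called by edgeR's quasi-likelihood test. Of 35 tested relatives and partners of the factors, 6 were apart upward and 9 downward in ILC1, where 12.5% and 13.3% of all genes tested were apart, and the median log2 fold change was -0.045. Of 20 other transcription factors of NK cells and ILCs, 3 were apart upward and 9 downward (median -0.37). Zfp683 (Hobit), a factor of tissue-resident lymphocytes, was at 2.65, 7.04 and 5.24 CPM in NK and 50.6, 41.7 and 62.2 CPM in ILC1 (log2 fold change 3.37 ± 0.40, edgeR adjusted p = 0.0830). Eomes, the T-box factor that separates NK cells from ILC1s, was at 562, 559 and 361 CPM in NK and 170.1, 136.5 and 68.4 CPM in ILC1 (-1.98 ± 0.38, edgeR adjusted p = 0.127). For Tcf7 every ILC1 library was below every NK library (-1.67), and for Rora every ILC1 library was above (1.74). Id2, needed by all innate lymphoid cells, was at 756 to 882 CPM in NK and 579 to 701.5 CPM in ILC1 (-0.32 ± 0.14, edgeR adjusted p = 0.346).

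Of 19 mature NK cell genes, 13 were apart downward and 1 upward, with a median of -1.73, which was -1.84 without ILC1 replicate 3 and -1.45 between NK replicate 3 and ILC1 replicates 1 and 2. S1pr5, the egress receptor that Zeb2 and T-bet support, was at 50.7, 53.0 and 17.9 CPM in NK and 1.73, 1.22 and 0.348 CPM in ILC1 (-5.20 ± 0.76, edgeR adjusted p = 0.103; called by DESeq2). The chymase gene Cma1 (-4.99) and the inhibitory receptor gene Klra7 (-2.04) were also below every NK library, though reads of Klra7 may be shared with near-identical Klra genes. Of 14 immature or memory-like genes, 4 were apart upward and 3 downward (median -0.060). Itga1 (CD49a) at 1.73 and Tnfsf10 (TRAIL) at 1.36, surface proteins typical of ILC1s, were above every NK library, and Cd27 (-1.55) and Cxcr3 (-1.21) were below every NK library.

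Of 22 GATA3 and c-Maf associated helper genes, 14 were tested, and 7 were apart upward and 1 downward, with a median of 1.26. The rest, Il5 and Il13 among them, did not pass the count filter, being at no more than 1.70 CPM in any library. The median therefore covers only the genes that passed. The median was 0.92 without ILC1 replicate 3 and 0.46 between NK replicate 3 and ILC1 replicates 1 and 2. Il2ra, the high-affinity IL-2 receptor chain, was at 11.6, 14.9 and 20.7 CPM in NK and 88.8, 72.8 and 78.9 CPM in ILC1 (2.35 ± 0.24, edgeR adjusted p = 0.0579), and Ccr8 was at 0.549, 1.08 and 1.15 CPM in NK and 15.1, 11.5 and 17.4 CPM in ILC1 (3.98 ± 0.42, edgeR adjusted p = 0.0600). Both are also expressed by regulatory T cells of tumours, whose marker sums are given above. Lif had a value of 1.12. Il4 was at 6.49, 1.80 and 0.961 CPM in NK and 0.612, 0.585 and 0.464 CPM in ILC1, with a value of -2.46 that was -1.31 without NK replicate 1. Gata3 itself was below every NK library in ILC1, and Maf overlapped.

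**Figure D4:**
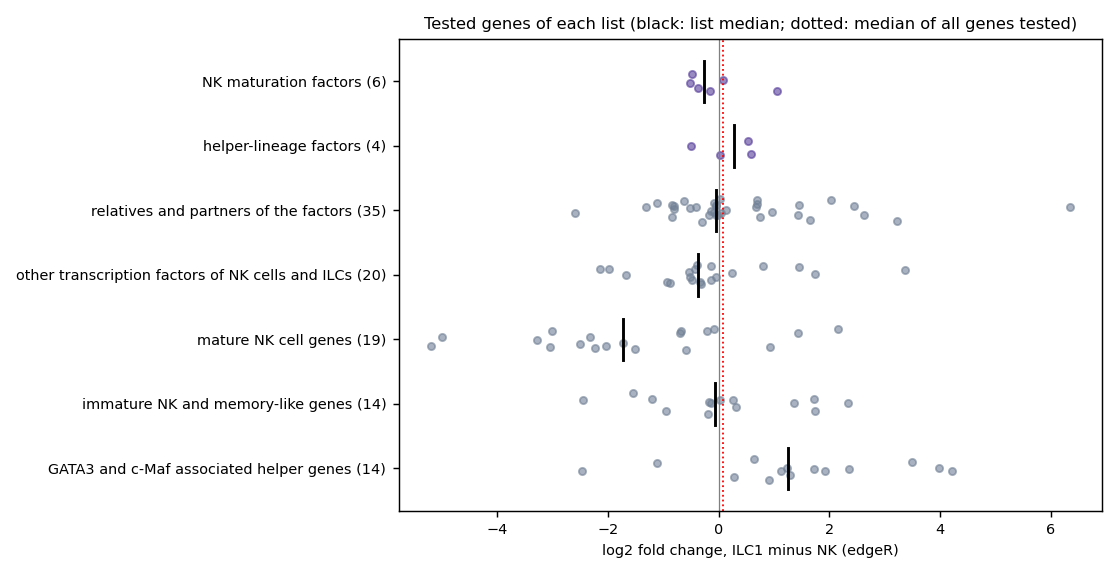
Log2 fold change, ILC1 minus NK, of each tested gene in the member groups and the 5 lists; points are genes and the bar is the median. The mature NK cell genes lie mostly below 0 (median -1.73) and the helper-associated genes mostly above it (median 1.26), while the 10 factors lie between -0.51 (Ets1) and 1.05 (Zeb2).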

How the data were processed

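RNA of NK cells and ILC1s sorted from tumours was selected with oligo(dT) beads, primed with random hexamers and sequenced as single-end reads of 50 bases, per the labels' protocols. The authors deposited raw counts per gene symbol, whole numbers that had not been normalized. Per the submitters' processing notes, the tools were HISAT2 2.1.0 and featureCounts 2.0.1, with GRCm38. The sources used here do not give the annotation, the strand setting or how multi-mapping reads were treated, so reads of a gene and an antisense partner cannot be told apart. The antisense genes that overlap exons of the 10 factors covered at most 5.87% of a factor's exon length (Runx2os1 over Runx2, 145 counts over all libraries). At most 5.66% of a factor's 50-base stretches (Runx2) occurred in exons of another gene.

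Counts were tested with edgeR 4.0.16 in R 4.3.3 on the whole table: TMM factors, filterByExpr (14475 of 55291 symbols), a robust quasi-likelihood model of cell type alone, and Benjamini-Hochberg adjusted p under 0.05 as a call. All 10 factors passed the filter. CPM use TMM-scaled library sizes, means are ± SD over 3 libraries, and log2 fold changes are ILC1 minus NK with the SE of the fit. A count of 0 allows up to 3 counts, or 0.144 to 0.174 CPM by library (counting error alone). Within-library ratios had 0.5 counts added and were compared by exact permutation. Levels per kilobase use the union of exons in GENCODE M21, which held 53292 of the symbols and gave the 1-based positions. Alternatives were RLE and upper-quartile scaling, other filters, each library left out, a replicate block, DESeq2 1.42.0, limma-voom (limma 3.58.1) without and with library weights, and terms or subsets for library sets known from earlier results. The fits were tested on simulated data. Libraries were not treated as paired, since the sources used here do not say whether replicate numbers pair them.

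The factors and lists were chosen with earlier results of these data known. All 10 factors are named. From each list the 4 genes with the smallest p are named, with the relatives Zeb1, Ikzf1, Ikzf4, Runx1, Cbfb and Irf4 and the factors Id2, Eomes and Tbx21; some genes that this rule names are not reported here. From each marker list the 2 most abundant genes could be named. Other markers (Foxp3, Csf1r, Cd14, Cd68, Col3a1, Il5, Il13, Flt3, Xcr1, Fcer1g, Tyrobp) and the remaining ETS factors were named after their values were seen. For likeness, the 3 highest Pearson r among tested genes with a mean of at least 20 CPM were taken. The alternatives for genes outside the 10, for list medians and for the exon length were added after seeing the data.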

Additional observations from a re-analysis of the deposited data

How the results depend on the processing

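The count of genes called moved from 12 to 138 with no low-count filter, 1010 with DESeq2, 33 with a term for library sets, 2212 with limma-voom and library weights, and 1891 between NK replicate 3 and ILC1 replicates 1 and 2 only. Leaving out each library gave 0 to 449: 449 without NK replicate 3, 22 without ILC1 replicate 3 and 0 without any of the others, where 1266 to 2026 genes had an unadjusted edgeR p under 0.05. The replicate block called 0 genes (1584 at an unadjusted edgeR p under 0.05). Same-numbered libraries deviated from their group means in opposite directions (r = -0.363, -0.355 and -0.564). Whether they shared a mouse or sort cannot be told from this, since libraries also differed in macrophage and matrix transcripts. Members called stayed at 0 except for 1 with library weights (Ikzf2) and 1 between NK replicate 3 and ILC1 replicates 1 and 2 (Zeb2). Ikzf3, Runx3, Ets1, Gata3 and Ikzf2 kept their direction under all 16 alternatives, Runx3 from -0.34 to -0.0097. For Ikzf3, Ets1, Gata3 and Ikzf2 the groups did not overlap. Leaving out libraries could therefore not turn their sign unless the scaling changed, and the kept direction restates that non-overlap.

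Other log2 fold changes turned sign. The fit with the library-set term takes its cell type effect from NK replicate 3 and ILC1 replicates 1 and 2 alone. It is therefore not independent of the comparison of those libraries that follows. Its values were -0.47 for Zeb2, 0.12 for Irf8, -0.20 for Nfil3, -0.11 for Maf, -0.23 for Runx1 and 0.22 for Tbx21. Between NK replicate 3 and ILC1 replicates 1 and 2 they were -0.51, 0.080, -0.24, -0.15, -0.27 and 0.18 for the same genes, and -0.00046 for Zeb1. With library weights they were -0.55 for Nfil3, -0.071 for Maf and -0.13 for Runx1. With upper-quartile scaling they were -0.0014 for Nfil3, -0.022 for Runx2 and -0.030 for Runx1; with the replicate block -0.082 for Nfil3 and -0.025 for Zeb1; with limma-voom -0.062 for Nfil3 and -0.026 for Zeb1. Leaving out each library gave -0.055 to 1.39 for Zeb2, -0.54 to 0.33 for Nfil3, -0.079 to 0.89 for Maf, -0.10 to 0.18 for Runx2, -0.16 to 0.32 for Zeb1, -0.17 to 0.17 for Runx1, -0.11 to 0.0014 for Cbfb and -0.26 to 0.049 for Tbx21. It gave -0.067 to 0.53 for the Runx2 to Runx3 ratio and 0.84 to 1.28 for Ikzf2 to Ikzf3; with the replicate block their exact permutation p were 1 and 0.25. The cause was not tested, beyond ILC1 replicate 3 holding the highest Zeb2, Nfil3 and Maf. With the length of the longest coding transcript, Ets1 (126) came before Nfil3 (96.6) per kilobase in NK, and Gata3 with Runx2 and Maf with Zeb2 traded places; in ILC1 Zeb2 (11.2) came before Gata3 (9.53).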
